A study of Mus musculus with 6 samples.

Results

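The heat shock chaperones described here are 74 of the 54752 genes tabled for 3T3-L1 cells, a mouse embryonic cell line that can be turned into fat cells in culture. They are the protein-coding genes of GENCODE M21 whose symbols name an Hsp70, Hsp110, Hsp90 alpha, small heat shock protein, mitochondrial chaperonin, TRiC subunit or J-protein. The pattern matched 79 protein-coding genes, and 5 were dropped by name: the endoplasmic reticulum chaperone genes Hspa5, Dnajb9, Dnajb11 and Dnajc3, and Hspbap1. By role, the 74 genes are 10 Hsp70, 3 Hsp110, 1 Hsp90, 2 mitochondrial chaperonin, 8 TRiC and 8 small heat shock protein genes, with 4 J-protein A, 11 J-protein B and 27 J-protein C genes. The name cytosolic and mitochondrial covers many but not all of them. Hspa13, Dnajb12, Dnajb14, Dnajc10 and Dnajc18, for example, encode proteins of the endoplasmic reticulum, and these are not the only exceptions. Hsp90ab1 and Tcp1 fell outside the symbol pattern. Cct6a also fell outside it, because the annotation types it as a processed transcript.

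RNA from 3T3-L1 adipocytes was set against RNA from 3T3-L1 preadipocytes, with 3 libraries per state. All 6 samples carried the strain label C57BL/6J, the tissue label embryo and no treatment, and 1 medium description that names BCS, DMI and FBS for both states. Titles and cell type labels set the groups, since 1 source name, Adipocyte, is given throughout. Harvest day and strandedness are not stated in the labels. No label ties the libraries to separate cultures, and p-values therefore reflect a spread between samples that may be technical.

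Chaperones help other proteins to fold. Hsp70 proteins bind and release unfolded stretches in a cycle driven by ATP, J-proteins bring them their clients and start hydrolysis, and Hsp110 proteins exchange the nucleotide. Ring-shaped chaperonins enclose whole proteins: TRiC does so in the cytosol, for actin and tubulin among others, while Hsp60 with its lid Hsp10 works in the mitochondrial matrix. Mitochondrial Hsp70 also pulls precursor proteins through the inner membrane, and mitochondria are known to multiply as preadipocytes become fat cells.

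Total expected counts ran from 23890505 to 26314021 in adipocyte libraries and from 22496418 to 24444434 in preadipocyte libraries. The labelled states matched their markers: 5 adipocyte markers summed to between 19370 and 21950 TPM, the length-corrected share of a library's transcripts, in adipocyte libraries and between 54.7 and 55.5 TPM in preadipocyte libraries. The 5 fibroblast and preadipocyte markers summed to between 286 and 366 TPM in adipocyte libraries and between 6347 and 7418 TPM in preadipocyte libraries. Macrophage, endothelial and skeletal muscle lists each stayed below 2 TPM in every library, with Adgre1, Itgam, Myog, Myod1, Ckm and Myh4 at 0 counts. In these bulk samples, a change in the share of cells of a type and a change in RNA per cell cannot be told apart.

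Of the 74 genes, 63 had enough counts to be tested, and 46 passed an adjusted p of 0.05 (quasi-likelihood test of edgeR, Benjamini-Hochberg over 14726 genes). Here rose and fell refer to that threshold, in adipocytes relative to preadipocytes. Of the members, 32 rose and 14 fell. Over all tested genes 35.7% rose and 37.9% fell, 73.5% in either direction, against 50.8% and 22.2% of the tested members. At 2-fold or more, 15 members rose and 6 fell, against 19.3% and 21.8% of all tested genes, while scaling by total counts left 9 members that rose so far, and limma on log2(TPM + 1) left 7. The median log2 fold change was 0.33 over the tested members and -0.06 over all tested genes. The groups did not overlap for 47 members (74.6%), near the 76.5% of all tested genes. The 11 untested genes, among them Hspb3, Hspb7, Dnajb8 and Dnajc6, summed to at most 47 counts in a group, 5 of them had 0 counts in every library, and none exceeded 0.58 TPM.

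The split between rises and falls depended on the scaling and on the unit. Normalised read counts are given as CPM, on library sizes scaled by TMM, whose factors were 0.88 to 0.90 in adipocyte and 1.11 to 1.13 in preadipocyte libraries. Relative to TMM, the log2 fold changes of single tested genes moved by a median of -0.33 with total counts, -0.13 with upper-quartile factors and -0.48 with limma on log2(TPM + 1). The last of these changes the unit and the test along with the scaling. The members that rose and fell then numbered 23 and 28 with total counts, 32 and 20 with upper-quartile factors and 19 and 31 with limma on TPM. Of all calls in the table, 48.5% were rises with TMM, 34.3% with total counts and 28.2% with limma on TPM. Of the 46 called members, 33 kept their direction and call under each of 14 alternative settings, 19 of the 32 that rose and each of the 14 that fell.

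**Figure D1:**
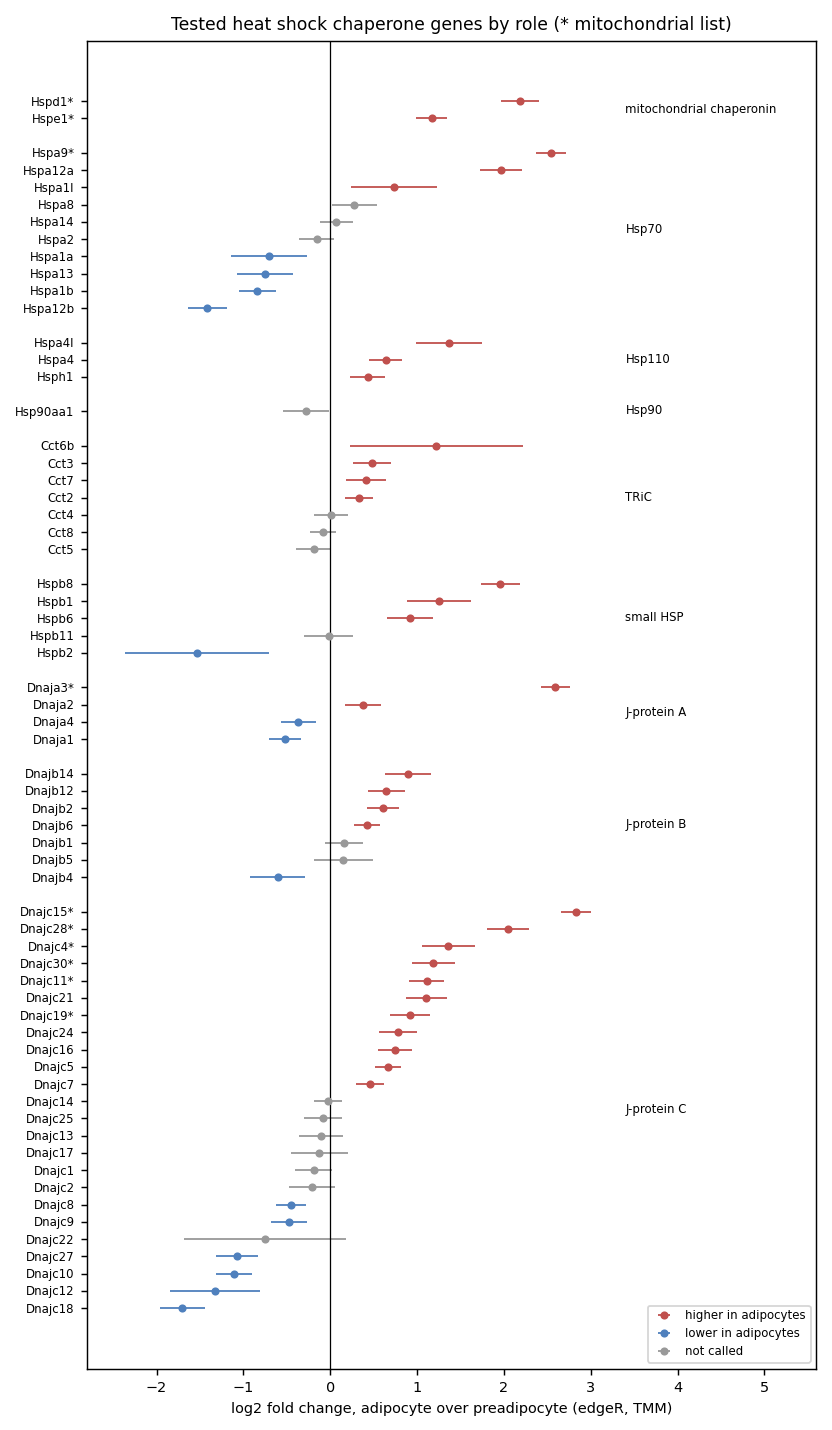
Fitted log2 fold change of adipocyte over preadipocyte libraries for the 63 tested genes, grouped by role, with bars for the 95% interval. Genes of the mitochondrial list, marked by an asterisk, all lie between 0.92 and 2.83, while the other genes fall on both sides of 0.

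The chaperones of mitochondria rose together. All 10 genes of a list chosen by known mitochondrial location rose, 9 of them at least 2-fold, with a median log2 fold change of 1.70, whereas 22 of the other 53 tested members rose and 14 fell, with a median of 0.01. With TMM the shares of those 53 were 41.5% and 26.4%, against 35.7% and 37.9% of all tested genes. With total counts 13 of those 53 rose and 28 fell, at a median of -0.31, and with limma on TPM 9 rose and 31 fell, at a median of -0.40. All 14726 tested genes shifted as well. With total counts 3914 of them rose and 7481 fell, at a median of -0.39, and with limma on TPM 3254 rose and 8279 fell, at a median of -0.42. The 10 mitochondrial rises held under each of the 14 settings, at 2-fold or more for 6 genes with total counts and 5 with limma on TPM. Their log2 fold changes ran from 0.92 for Dnajc19 to 2.83 for Dnajc15. The list was drawn up with earlier results of these data known, so its count describes these genes and was not tested as a set.

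Hspd1 encodes Hsp60, the barrel of the mitochondrial chaperonin, and Hspe1 encodes Hsp10, its lid. The 2 genes lie head to head on chromosome 1, Hspd1 at chr1:55077835-55088243 on the minus strand and Hspe1 at chr1:55088132-55091307 on the plus strand (GRCm38), so that their annotated 5′ ends overlap by 112 bases. Between their RefSeq starts stands 1 block of heat shock element units, the motif bound by heat shock factors, which both promoter windows share. The block also lies within an annotated exon and untranslated region of Hspd1. It is shown as read from each gene, from RefSeq on GRCm38.p6 at chr1:55088053-55088082, because both windows hold it. The RNA of the 2 genes changed by unequal amounts, and whether the block bears on either change was not tested. Capitals mark the run of alternating TTC and GAA units, which lies 144 to 127 bases before the Hspd1 start and 89 to 72 bases before the Hspe1 start.
Hspd1 (minus strand): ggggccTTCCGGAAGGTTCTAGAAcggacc
Hspe1 (plus strand): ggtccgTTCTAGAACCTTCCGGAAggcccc

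Hspd1 had 958, 1103 and 1164 CPM in the adipocyte libraries, against 224, 243 and 241 CPM in the preadipocyte libraries. Every adipocyte library stood far above every preadipocyte library, a log2 fold change of 2.19 ± 0.10 (SE, edgeR, adjusted p = 8.82e-08). Hspe1 had 171, 156 and 152.5 CPM in adipocyte libraries, against 74.99, 69.3 and 68.5 CPM in preadipocyte libraries. The groups were again apart, at 1.17 ± 0.08 (SE, edgeR, adjusted p = 1.30e-06). Per length, Hspd1 stood at 1.52, 1.93 and 2.08 times the TPM of Hspe1 in adipocyte libraries, against 0.81, 0.94 and 0.95 times in preadipocyte libraries. The log2 ratio averaged 0.87 ± 0.24 in adipocytes and -0.16 ± 0.14 in preadipocytes (SD, n = 3 each), and the groups did not overlap. An exact two-sided permutation test gave p = 0.1, the smallest that 3 against 3 libraries allow, and 0.125 after Benjamini-Hochberg adjustment over 5 ratios and shares. Of the 31-base words of the Hspd1 transcripts, 53.1% also occur in other genes, chiefly the pseudogene Hspd1-ps3, but the 2 pseudogene copies together held 0.0125% of the summed CPM in adipocytes and 0.0106% in preadipocytes. For Hspe1 the share of such words is 30.5%, chiefly with AC117239.2, and 7.6% of its exonic bases overlap other genes. No copy share is given for Hspe1, so the ratio carries that limit.

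Hspa9, which encodes mitochondrial Hsp70, was the most abundant member in adipocytes by TPM. Its levels were 2042, 1978 and 2141 CPM in adipocyte libraries, against 358, 343 and 357 CPM in preadipocyte libraries. That is a 5.82-fold difference with no overlap, at a log2 fold change of 2.54 ± 0.08 (SE, edgeR, adjusted p = 9.93e-09). Dnaja3, a matrix J-protein that works with Hspa9, had 312, 301 and 297 CPM in adipocyte libraries, against 51.8, 48.7 and 50.5 CPM in preadipocyte libraries. Its rise of 2.59 ± 0.07 in log2 was close to that of its partner (SE, edgeR, adjusted p = 7.75e-09).

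Dnajc15 encodes an inner membrane J-protein of the import motor. It had 80.8, 81.0 and 80.7 CPM in adipocyte libraries, against 11.5, 11.7 and 10.9 CPM in preadipocyte libraries. At 7.11-fold it was the largest change among the 63 tested members, a log2 fold change of 2.83 ± 0.08 (SE, edgeR, adjusted p = 6.34e-09). Its relative Dnajc19, also of the import motor, changed least of the mitochondrial list, with 20.5, 22.6 and 23.7 CPM in adipocyte libraries and 12.1, 10.8 and 12.4 CPM in preadipocyte libraries. Of the remaining mitochondrial J-proteins, Dnajc28 rose by 2.05 in log2 and Dnajc4 by 1.36. Dnajc30, linked to the respiratory chain, rose by 1.19 and Dnajc11, found with the complex that shapes the cristae, by 1.11. Dnajc30 shares 26.7% of its 31-base words with other genes, mainly its neighbour Bud23, and its count is uncertain to that degree.

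**Figure D2:**
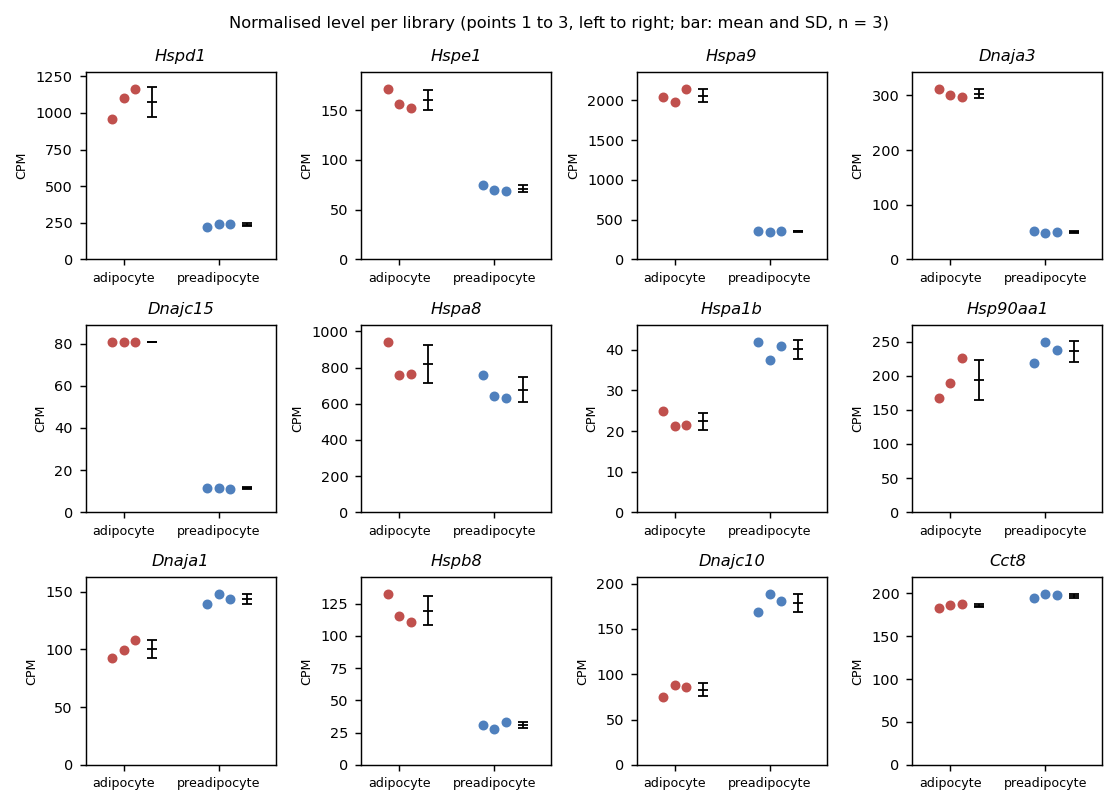
Normalised level in CPM of 12 members in each library, adipocyte to the left and preadipocyte to the right, each axis from 0, with the mean and SD of 3 libraries beside the points. Hspd1, Hspe1, Hspa9, Dnaja3, Dnajc15 and Hspb8 lie higher in all 3 adipocyte libraries, Hspa1b, Dnaja1 and Dnajc10 lie lower in all 3, and for Hspa8 and Hsp90aa1 the groups overlap.

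Among the 10 Hsp70 genes, 3 rose, 4 fell and 3 were not called. Hspa8, the constitutive cytosolic Hsc70, had 944, 759 and 764 CPM in adipocyte libraries, against 759.6, 644 and 632 CPM in preadipocyte libraries. The first library of each state was the highest of its group, and the groups overlapped by a narrow margin. The log2 fold change of 0.28 ± 0.11 missed the threshold (SE, edgeR, adjusted p = 0.0532). With the replicate number as a block it was 0.27 with an adjusted p of 3.29e-04 in edgeR, and without the second adipocyte library, the third adipocyte library or the first preadipocyte library it was called at 0.37, 0.39 and 0.37. It was also called higher by DESeq2 (0.34, adjusted p = 0.0161), and in edgeR with RLE factors (0.34), no low-count filter (0.35) or without both libraries numbered 1 (0.26). It was -0.05 with total counts and -0.26 with limma on TPM, neither called. In addition, 9 other annotated copies held 34.3% of the summed CPM of Hspa8 and its copies in adipocytes and 34.5% in preadipocytes.

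The stress-inducible pair Hspa1a and Hspa1b fell. Hspa1b had 24.8, 21.1 and 21.4 CPM in adipocyte libraries, against 42.0, 37.4 and 40.9 CPM in preadipocyte libraries. It was lower in all 3 adipocyte libraries, with a log2 fold change of -0.84 ± 0.09 (SE; edgeR, adjusted p = 4.21e-05). Hspa1a had 12.4, 9.34 and 6.84 CPM in adipocyte libraries, against 16.9, 14.4 and 15.2 CPM in preadipocyte libraries, a log2 fold change of -0.70. The 2 genes share most of their sequence, with 70.1% of the 31-base words of Hspa1a and 68.1% of those of Hspa1b found elsewhere, so the split between them is uncertain. Summed, they had 31.9 ± 4.67 CPM in adipocytes and 55.6 ± 3.60 CPM in preadipocytes (SD, n = 3 each). As a share of the TPM of Hspa1a, Hspa1b and Hspa8, the inducible pair made up 2.01%, 2.17% and 2.02% in adipocyte libraries, against 3.99%, 4.19% and 4.56% in preadipocyte libraries. The groups did not overlap (exact permutation test, two-sided, p = 0.1, the smallest possible, adjusted 0.125).

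The likeness of the pair extends upstream. The 250 bases before each start, at chr17:34959239-34959488 for Hspa1b and chr17:34972157-34972406 for Hspa1a, both on the minus strand (RefSeq, GRCm38.p6), are identical at 247 positions (98.8%). They are shown in full because both genes fell. Capitals mark GAAGATTC, a match to the heat shock element pair GAANNTTC that lies 104 to 97 bases before each start.
Hspa1b: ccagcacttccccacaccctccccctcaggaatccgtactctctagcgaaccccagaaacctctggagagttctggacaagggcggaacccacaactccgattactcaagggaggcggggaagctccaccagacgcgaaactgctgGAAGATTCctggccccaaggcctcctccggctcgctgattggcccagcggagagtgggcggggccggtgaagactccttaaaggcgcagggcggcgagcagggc
Hspa1a: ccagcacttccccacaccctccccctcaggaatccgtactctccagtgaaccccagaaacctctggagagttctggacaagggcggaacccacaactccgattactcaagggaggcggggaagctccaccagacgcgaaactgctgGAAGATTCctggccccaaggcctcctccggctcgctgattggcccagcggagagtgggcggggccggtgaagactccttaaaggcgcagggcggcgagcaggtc

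The divergent Hsp70 relatives Hspa12a and Hspa12b moved in opposite directions. Hspa12a had 29.6, 34.2 and 36.4 CPM in adipocyte libraries, against 8.22, 8.53 and 8.89 CPM in preadipocyte libraries (log2 fold change 1.96 ± 0.11 SE, edgeR, adjusted p = 3.12e-07). Hspa12b had 18.8, 18.4 and 15.8 CPM in adipocyte libraries, against 50.7, 45.5 and 45.2 CPM in preadipocyte libraries (-1.42 ± 0.10 SE, edgeR, adjusted p = 1.52e-06). Neither pair of groups overlapped. Hspa13 also fell, by 0.75 in log2, while Hspa2 and the ribosome-associated Hspa14 were not called at -0.16 and 0.07. Hspa1l, known from testis, rose by 0.74 in log2 at 1.51 ± 0.11 CPM in adipocytes and 0.90 ± 0.15 CPM in preadipocytes (SD, n = 3 each), but 71.9% of its exonic bases overlap another gene. Its call was lost without the second preadipocyte library (0.62, edgeR adjusted p = 0.0617), with total counts (0.41) and with limma on TPM (0.11).

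All 3 Hsp110 genes, the nucleotide exchange factors of cytosolic Hsp70, rose with TMM, as did 35.7% of all tested genes. With total counts and with limma on TPM 2 of them rose. Hspa4 had 236, 258 and 265 CPM in adipocyte libraries, against 151, 166 and 170.0 CPM in preadipocyte libraries (log2 fold change 0.64 ± 0.08 SE, edgeR, adjusted p = 1.09e-04). Hspa4l had 15.3, 18.9 and 22.2 CPM in adipocyte libraries, against 6.03, 7.90 and 7.84 CPM in preadipocyte libraries, a log2 fold change of 1.37. Hsph1 had 47.7, 52.4 and 57.3 CPM in adipocyte libraries, against 39.4, 39.0 and 38.6 CPM in preadipocyte libraries, a log2 fold change of 0.43. In CPM none of the 3 genes overlapped between groups, which holds for 76.5% of all tested genes. Hsph1 was not called with total counts (0.10, edgeR adjusted p = 0.317) or with limma on TPM (-0.07). Its TPM overlapped, at 23.5, 22.6 and 24.0 in adipocyte libraries and 22.4, 25.4 and 25.8 in preadipocyte libraries.

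Hsp90aa1, the inducible cytosolic Hsp90, had 167, 189.5 and 226 CPM in adipocyte libraries, against 219, 249.9 and 238 CPM in preadipocyte libraries. The third adipocyte library lay within the preadipocyte range, and the log2 fold change of -0.28 ± 0.12 missed the threshold (SE, edgeR, adjusted p = 0.0536). Hsp90aa1 was called lower with the replicate block (-0.29, edgeR adjusted p = 0.00152), without the third adipocyte library (-0.35), without the first preadipocyte library (-0.33) and without both libraries numbered 1 (-0.23). It was also called lower with upper-quartile factors (-0.41), total counts (-0.61) and limma on TPM (-0.90). Hsp90aa1 shares 51.5% of its 31-base words with other genes, but its pseudogene copies held 0.055% of their summed CPM in adipocytes and 0.123% in preadipocytes. Its constitutive relative Hsp90ab1, no member of the set, had 1129.9, 1043 and 995 CPM in adipocyte libraries, against 1395, 1267 and 1309 CPM in preadipocyte libraries, and fell by 0.33 in log2 (edgeR, adjusted p = 0.00547). Without the second adipocyte library Hsp90ab1 stood at -0.28 and was not called (edgeR, adjusted p = 0.0686), nor was it with no low-count filter (-0.26). The Hsp90aa1 share of the TPM of both genes was 10.97%, 13.1% and 17.6% in adipocyte libraries, against 12.2%, 15.6% and 14.8% in preadipocyte libraries. Those ranges overlapped (exact permutation test, two-sided, p = 1).

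TRiC, the cytosolic chaperonin, showed small changes whose calls, and for some genes signs, depended on the scaling and on the unit and test. With TMM in edgeR, 4 of its 7 tested genes rose and 0 fell, against 35.7% and 37.9% of all tested genes. At an unadjusted p under 0.05 in edgeR 0 fell as well, and 0 fell with DESeq2. With total counts none rose and 3 fell, and with limma on TPM none rose and 4 fell. All tested genes shifted as well, to 3914 rises and 7481 falls with total counts and 3254 and 8279 with limma on TPM. Cct7 had 266, 235 and 219 CPM in adipocyte libraries, against 199.5, 169 and 173 CPM in preadipocyte libraries, a log2 fold change of 0.41 that was -0.10 with limma on TPM. Cct3 was at 0.48 with TMM and -0.04 with limma on TPM. Cct2 was called in both directions, at 0.33 with TMM and at -0.23 with limma on TPM (limma, adjusted p = 0.0462). With total counts Cct2, Cct3 and Cct7 kept their sign, at 0.0012, 0.15 and 0.083, and were not called. Cct8 had 183, 186 and 188 CPM in adipocyte libraries and 195, 199 and 198 CPM in preadipocyte libraries, which did not overlap but were not called (log2 fold change -0.09, edgeR adjusted p = 0.264). Cct5 and Cct4 were not called at -0.19 and 0.01. Cct4 stood at -0.12, not called, with upper-quartile factors. It was called lower with total counts (-0.31, edgeR adjusted p = 0.0120) and with limma on TPM (-0.52, limma adjusted p = 0.0040). Cct5 was called lower with the replicate block (-0.19, edgeR adjusted p = 0.00338) and without the first adipocyte library (-0.25). Cct5 was also called lower without both libraries numbered 1 (-0.20). With upper-quartile factors 4 of the 7 genes rose and 2 fell, Cct5 at -0.33 and Cct8 at -0.22. Cct6b, below 1 CPM, was called at 1.22 and kept that call in 6 of the 14 alternative settings. It lost the call in edgeR without adipocyte library 1 or 3 or without preadipocyte library 1 or 3 (0.83 to 1.24). The call was also lost without both libraries numbered 1 (1.23), with DESeq2 (1.28), with total counts (0.90) and with limma on TPM (0.20).

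A ratio within a library does not depend on the scaling between libraries. Hspd1 stood at 3.73, 4.48 and 4.75 times the mean TPM of 8 TRiC subunit genes in adipocyte libraries, against 0.977, 1.12 and 1.098 times in preadipocyte libraries. The subunit genes were Cct2, Cct3, Cct4, Cct5, Cct7 and Cct8 with Tcp1 and Cct6a, which are not members. The log2 ratio averaged 2.10 ± 0.18 in adipocytes and 0.09 ± 0.11 in preadipocytes (SD, n = 3 each; exact permutation test, two-sided, p = 0.1, the smallest possible, adjusted 0.125). Hspd1 was thus near the level of an average TRiC subunit message in preadipocyte libraries and above it in each adipocyte library. The ratio does not compare the 2 chaperonins as wholes. Summed, the TRiC members, without Tcp1 and Cct6a, averaged 1013 TPM in preadipocytes, against 407 TPM for Hspd1 plus Hspe1. In adipocytes these sums averaged 782 and 956 TPM. The 8 subunit messages themselves lay within a narrow band, the highest at 1.74 to 2.05 times the lowest in adipocyte libraries and 1.83 to 2.25 times in preadipocyte libraries.

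Summed over the 74 genes, the level was 5221, 5145 and 5386 TPM in adipocyte libraries, against 4443, 4537 and 4544 TPM in preadipocyte libraries. The mitochondrial list accounted for 43.4%, 45.6% and 46.2% of it in adipocyte libraries, against 18.0%, 18.2% and 18.5% in preadipocyte libraries. The groups did not overlap, which is a description, since the list was drawn up with these results known. TPM per library sums to a fixed total, so the other members' 2884 ± 79.2 TPM in adipocytes and 3686 ± 37.6 TPM in preadipocytes (SD, n = 3 each) are shares of all messages in the library. The abundance order shifted with it: by mean TPM, Hspa9, Hspa8 and Hspd1 led in adipocytes, and Hspa8, Hspa9 and Cct8 led in preadipocytes.

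**Figure D3:**
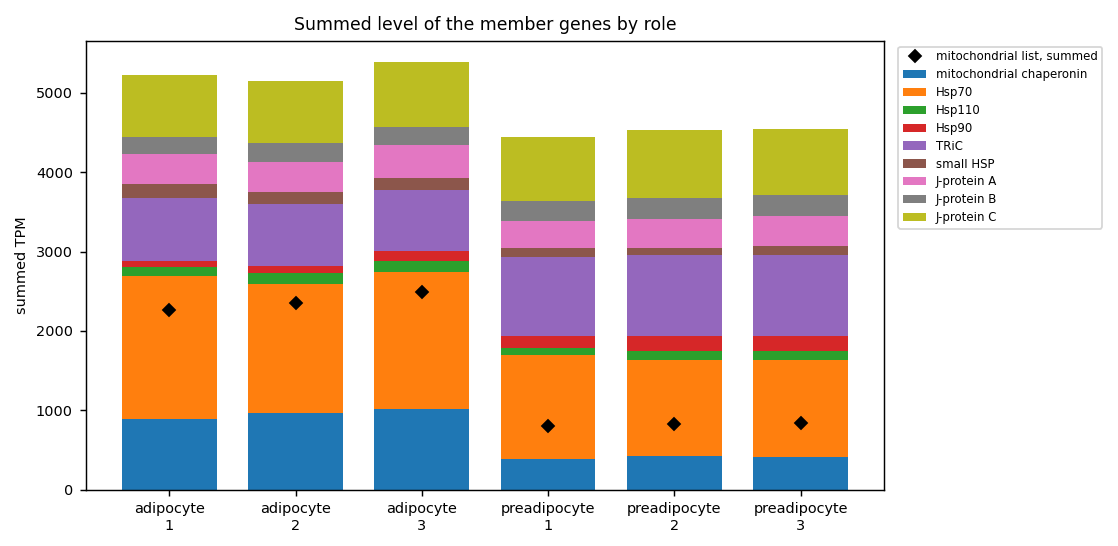
Summed TPM of the 74 genes in each library, adipocyte libraries first, stacked by role, with diamonds for the sum of the 10 mitochondrial genes, which are counted in the bars as well. The diamonds lie between 2267 and 2487 TPM in adipocyte libraries and between 800 and 840 TPM in preadipocyte libraries.

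Small heat shock proteins hold unfolded proteins without using ATP. Of the 5 tested genes, 3 rose, 1 fell and 1 was not called, while 35.7% of all tested genes rose and 37.9% fell. Hspb8, which works with Bag3 in clearing misfolded proteins, had 132, 115 and 111 CPM in adipocyte libraries, against 31.2, 28.1 and 32.9 CPM in preadipocyte libraries. That 3.89-fold rise had no overlap between groups (log2 fold change 1.96 ± 0.10 SE, edgeR, adjusted p = 2.03e-07). Hspb6, the Hsp20 gene, had 38.2, 30.8 and 32.1 CPM in adipocyte libraries, against 19.5, 15.9 and 18.1 CPM in preadipocyte libraries, a log2 fold change of 0.92. Hspb1, the Hsp27 gene, rose by 1.25 in log2 at 3.995 ± 0.35 CPM in adipocytes and 1.67 ± 0.13 CPM in preadipocytes (SD, n = 3 each). Of the 31-base words of Hspb1, 55.4% recur in other genes, mainly the pseudogene Hsp25-ps1. Hspb2 fell by 1.54 in log2 at about 1 CPM or less, with 30.2% of its exonic bases overlapping other genes and its neighbour Cryab, at 29.6 CPM in adipocytes and 108 CPM in preadipocytes, as the closest in sequence. Hspb11, a subunit of the intraflagellar transport machinery, was not called at -0.02.

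Outside mitochondria the J-proteins, which hand clients to Hsp70, moved in both directions. Dnaja2 had 161, 184 and 196 CPM in adipocyte libraries, against 131, 143 and 142 CPM in preadipocyte libraries, a log2 fold change of 0.38 that was -0.11, not called, with limma on TPM. Its cytosolic relative Dnaja1 had 92.4, 99.4 and 108 CPM in adipocyte libraries, against 139.6, 148 and 144 CPM in preadipocyte libraries. All adipocyte libraries were below all preadipocyte libraries, with a log2 fold change of -0.52 ± 0.08 (SE; edgeR, adjusted p = 3.14e-04). Dnaja4 fell by 0.37, with 44.1% of its exonic bases overlapping Wdr61 or other genes.

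Of the 7 tested J-protein B genes, 4 rose and 1 fell with TMM, whereas none rose and 3 fell with limma on TPM. Over all 14726 tested genes, 35.7% rose and 37.9% fell with TMM, and 3254 rose and 8279 fell with limma on TPM. Dnajb14 and Dnajb12, paired J-proteins of the endoplasmic reticulum membrane, rose by 0.89 and 0.65 in log2. Dnajb6, known for holding back aggregation, had 133, 132 and 129 CPM in adipocyte libraries, against 97.1, 96.7 and 99.9 CPM in preadipocyte libraries, a log2 fold change of 0.42 that was -0.15 with limma on TPM. Dnajb4 had 31.9, 41.6 and 46.5 CPM in adipocyte libraries, against 54.6, 65.7 and 61.9 CPM in preadipocyte libraries, and fell by 0.60 in log2. Dnajb2 rose by 0.61. The stress-inducible Hsp40 gene Dnajb1 was not called at 0.16, but was called higher with the replicate block (0.16, edgeR adjusted p = 0.0224) and without the third adipocyte library (0.27), and lower with limma on TPM (-0.35, adjusted p = 0.00590).

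J-protein C genes are the most varied class. Of 24 tested, 11 rose, among them the 6 mitochondrial ones, 6 fell and 7 were not called. The rises and falls are 45.8% and 25.0%, against 35.7% and 37.9% of all tested genes. With total counts 10 rose and 13 fell, against 3914 and 7481 of all 14726 tested genes. With limma on TPM 9 rose and 13 fell, against 3254 and 8279 of all tested genes. Dnajc7, which links Hsp70 to Hsp90, had 118, 118 and 120.0 CPM in adipocyte libraries, against 90.6, 86.7 and 82.2 CPM in preadipocyte libraries. It rose by 0.46 with TMM, was not called with total counts and was called lower, at -0.39, with limma on TPM. Dnajc21, needed for ribosome assembly, Dnajc24, of diphthamide synthesis, Dnajc16 and Dnajc5, the cysteine string protein, rose by 1.11, 0.78, 0.75 and 0.66 in log2.

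Dnajc18, an endoplasmic reticulum membrane J-protein, had the largest fall among tested members, with 11.6, 15.4 and 13.8 CPM in adipocyte libraries, against 41.2, 46.4 and 45.1 CPM in preadipocyte libraries (log2 fold change -1.70 ± 0.11 SE, edgeR, adjusted p = 1.23e-06). Dnajc10, an endoplasmic reticulum disulfide reductase, had 74.3, 88.1 and 86.4 CPM in adipocyte libraries, against 168, 188 and 181 CPM in preadipocyte libraries (-1.11 ± 0.09 SE, edgeR, adjusted p = 4.49e-06). For both genes every adipocyte library was below every preadipocyte library. Dnajc8, a splicing-associated protein, had 51.2, 46.0 and 46.9 CPM in adipocyte libraries, against 67.7, 65.7 and 64.1 CPM in preadipocyte libraries. Dnajc8 fell by 0.45 in log2 and the histone co-chaperone Dnajc9 by 0.47, while Dnajc27 fell by 1.07 and Dnajc12, near 1 to 2 CPM, by 1.33. Dnajc1 and Dnajc2 were not called at -0.19 and -0.21, and both were called lower with the replicate block (edgeR adjusted p = 0.00877 and 0.0272), Dnajc1 also without the first preadipocyte library (-0.25) and Dnajc2 without the third adipocyte library (-0.29). Both were also called lower with upper-quartile factors (-0.33 and -0.34), total counts (-0.52 and -0.54) and limma on TPM (-0.40 and -0.71). Dnajc1 was called lower without both libraries numbered 1 as well (-0.20).

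Heat shock element letters were looked for in the 250 bases before each RefSeq start, on both strands. Of the members, 60 matched the promoter table, with 79 windows. A pair of units, GAANNTTC or TTCNNGAA, stood in 24.1% of the member windows and in 12.8% of all 32851 windows, and 3 alternating units, which add NNGAA to GAANNTTC or NNTTC to TTCNNGAA, in 5.06% and 0.466%. The longer motifs contain the shorter ones. The 4 member windows with 3 units hold only 2 stretches of DNA. These are the block shared by Hspd1 and Hspe1 and 1 stretch seen from 2 starts of Dnajb6. Windows with a pair repeat both, and also 1 stretch seen from 2 starts of Hsph1. Hspa1a and Hspa1b carry their pair in identical stretches. The windows are thus not all separate sites, and the difference in shares was not tested. A pair was found for 17 members, of which 7 rose, 7 fell, 1 was not called and 2 were not tested, and 3 units were found for Hspd1, Hspe1 and Dnajb6. The stretches of Dnajb6, with 3 units, and of Dnajb4 and Dnajc10, with a pair, are shown to set a gene that rose beside 2 that fell. They lie at chr5:29735844-29735873 (plus strand), chr3:152193846-152193875 (minus strand) and chr2:80315273-80315302 (plus strand) in RefSeq on GRCm38.p6, with the units in capitals. The Dnajb6 stretch lies within an annotated exon and untranslated region of Dnajb6 and an exon of Gm5129. Those of Dnajb4 and Dnajc10 lie in no annotated exon.
Dnajb6: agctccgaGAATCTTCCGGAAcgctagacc
Dnajb4: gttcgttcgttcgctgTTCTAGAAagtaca
Dnajc10: aacaattttatTTCTAGAAaactttaatta

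**Figure D4:**
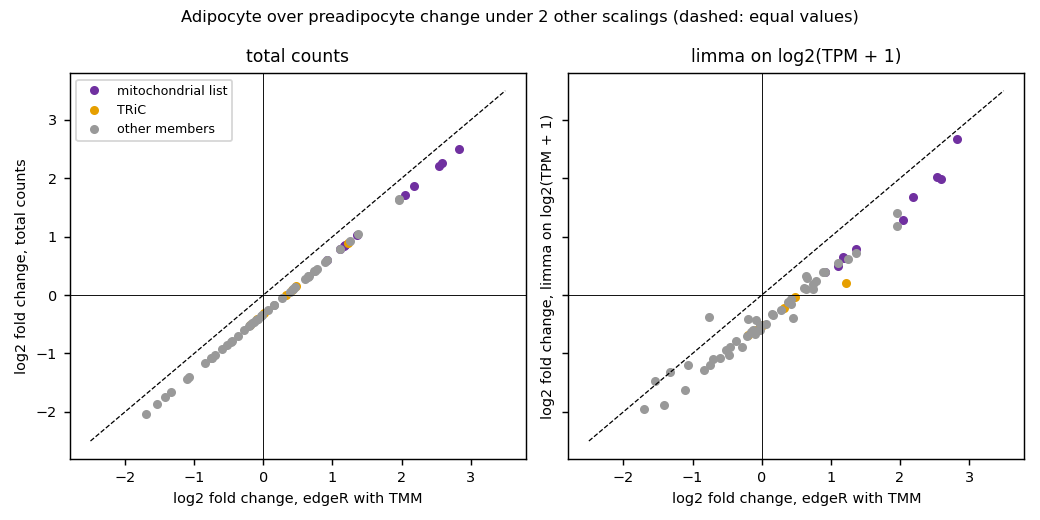
Log2 fold change of adipocyte over preadipocyte for the 63 tested genes under edgeR with TMM on the horizontal axis and under total counts (left) and limma on log2(TPM + 1) (right) on the vertical axis, with a dashed line of equal values. Most points lie below the line, the mitochondrial genes stay above 0 in both panels, and TRiC genes lie on both sides of 0.

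Among 48 partner genes, co-chaperones, regulators and mitochondrial proteases that are no members, 46 were tested. Of these, 21 rose and 12 fell, with a median log2 fold change of 0.21. These are 45.7% and 26.1% of the tested partners, against 35.7% and 37.9% of all tested genes. With total counts 15 rose and 21 fell, at a median of -0.12, and with limma on TPM 12 rose and 25 fell, at a median of -0.37. Over all 14726 tested genes, 3914 rose and 7481 fell with total counts, at a median of -0.39. With limma on TPM 3254 of all tested genes rose and 8279 fell, at a median of -0.42. The largest rise was that of Grpel1, the nucleotide exchange factor of mitochondrial Hsp70, with 294, 257 and 251 CPM in adipocyte libraries, against 51.1, 39.1 and 41.1 CPM in preadipocyte libraries, a log2 fold change of 2.61 beside 2.54 for Hspa9. Lonp1, a matrix protease, Bag1, an exchange factor of cytosolic Hsp70, and Trap1, the mitochondrial Hsp90, rose by 2.29, 2.14 and 2.02. The largest falls were those of Hsf4, a heat shock factor, at -2.84 and 0.71 ± 0.18 CPM in adipocytes against 5.11 ± 0.76 CPM in preadipocytes (SD, n = 3 each), the small heat shock protein Cryab at -1.87 and the prefoldin subunit Vbp1 at -1.18. The TRiC subunit gene Tcp1 was called at 0.25 with TMM, and at -0.37 with limma on TPM (adjusted p = 0.0111). It lost its edgeR call without the second adipocyte library (0.26) or the third preadipocyte library (0.24), and also under upper-quartile scaling (0.11) or total counts (-0.081).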

How the data were processed

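RNA sequencing of 3 adipocyte and 3 preadipocyte samples of 3T3-L1 cells was deposited as 1 gene table per sample. Per the file headers, each table holds the authors' expected counts, TPM and FPKM per gene. The tools RSEM, Bowtie, Bowtie2 and DESeq2 and the builds mm10 and GRCm38 come from the submitters' processing notes, which give no versions or roles. The deposited expected counts divide reads that match several genes, without scaling across libraries. Deposited TPM values are per length and scaled within each library, and the deposited FPKM values were not used.

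Of 54752 identifiers, 54723 matched GENCODE M21 once the version was removed. Expected counts were rounded, filtered with filterByExpr and tested across all genes with edgeR 4.0.16 (R 4.3.3), with TMM, no covariate beside the group, and an adjusted p (Benjamini-Hochberg) of 0.05. The edgeR steps were tested on simulated counts in which few genes changed, as many up as down. That setting cannot check the choice of scaling, since most genes were called in these data. Alternatives were RLE, upper-quartile and total-count scaling, no low-count filter, DESeq2 1.42.0, limma 3.58.1 on log2(TPM + 1), a replicate block, each library left out in turn and both libraries numbered 1 left out. Same-numbered libraries deviated together (correlations over genes of 0.66, 0.30 and 0.26, all over 0.1), so the replicate block paired libraries by number, as an alternative setting only. The main edgeR test and the permutation tests took no account of this pairing. The pairing comes from these correlations and not from a label, and is not specific to the numbers: adipocyte library 3 correlated at 0.45 with preadipocyte library 2, and adipocyte library 2 at 0.16 with preadipocyte library 3.

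The members, lists and tests were chosen with earlier results of these data known. Members with values per library come, within each role, from the 3 highest in mean TPM and, among called members with at least 5 CPM, the 2 largest rises and 2 largest falls, and some of these are given by fold change alone. For partners, Hsp90ab1, Tcp1 and Trap1 are named with the 3 largest rises and falls. Others are given by their fold change, and Hspa1a and Dnajc19 per library were chosen after their values were seen. Depth limits the genes below about 1 CPM, and all errors cover these libraries only.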

Additional observations from a re-analysis of the deposited data

How the results depend on the processing

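Changes of scaling and of unit moved the counts: 28 members fell with total counts, while limma on log2(TPM + 1), which changes unit, test and scaling at once, gave 19 members that rose, 31 that fell and 3254 tested genes that rose. With the replicate block, 34 members rose and 18 fell, and the block changed no call of a member other than the 6 named above (Hspa8, Hsp90aa1, Dnajb1, Dnajc1, Dnajc2 and Cct5). Of the fitted log2 fold changes, these changed sign. With RLE factors Dnajc14 was 0.029 and Hspb11 0.035, with DESeq2 0.029 and 0.035, and with no low-count filter 0.038 and 0.043. With upper-quartile factors Hspa14 was -0.065 and Cct4 -0.12. With total counts Hspa14 was -0.26, Hspa8 -0.051, Dnajb1 -0.17, Dnajb5 -0.18 and Cct4 -0.31. With limma on TPM Hsph1 was -0.067, Hspa14 -0.49, Hspa8 -0.26, Dnaja2 -0.11, Dnajb1 -0.35, Dnajb5 -0.33, Dnajb6 -0.15, Dnajc7 -0.39, Cct2 -0.23, Cct3 -0.041, Cct4 -0.52 and Cct7 -0.096. Without both libraries numbered 1, Dnajb5 was -0.0049 and Hspb11 0.093. With each library left out in turn, Dnajb5 ran from -0.0058 to 0.28, Dnajc13 from -0.17 to 0.012, Dnajc14 from -0.0475 to 0.062, Cct4 from -0.022 to 0.094 and Hspb11 from -0.067 to 0.053. Over the same settings the adipocyte minus preadipocyte difference in the Hsp90aa1 share ran from -2.17 to 1.16 percentage points, and it was 0.44 points from CPM in place of TPM. The cause of these changes was not tested. Below about 1 CPM, depth limits what the calls of Cct6b, Hspb2 and Hspa1l can show.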

Other observations

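Some of the partner genes form small groups of their own, which were picked out after their values were seen. The proteases of the mitochondrial matrix Lonp1, Clpx and Clpp all rose, by 2.29, 2.05 and 1.57 in log2, and did so under each of the 14 alternative settings. Clpp had 120.5, 93.4 and 88.2 CPM in adipocyte libraries, against 41.1, 28.4 and 32.4 CPM in preadipocyte libraries, with no overlap between the groups. Of 6 Bag genes, which release clients from Hsp70, 4 rose, 1 fell and 1 was not called with TMM. With limma on TPM 3 rose and 3 fell. Over all 14726 tested genes, 35.7% rose and 37.9% fell with TMM, and 3254 rose and 8279 fell with limma on TPM. Bag4 had 91.0, 102 and 108 CPM in adipocyte libraries, against 22.8, 24.5 and 25.0 CPM in preadipocyte libraries.

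Prefoldin hands actin and tubulin to TRiC. Beside the same shares of all tested genes, 1 of the 6 prefoldin genes rose, 3 fell and 2 were not called with TMM. With limma on TPM 0 of the prefoldin genes rose and 5 fell. Without the second or the third preadipocyte library 0 of them rose, and without the second preadipocyte library 2 fell. Pfdn5 had 76.0, 63.3 and 59.8 CPM in adipocyte libraries, against 139, 106 and 107 CPM in preadipocyte libraries, a log2 fold change of -0.82 ± 0.13 (SE; edgeR, adjusted p = 4.54e-04). Heat shock factor gene Hsf1 was not called at -0.28 (edgeR, adjusted p = 0.0653), with 32.8, 25.5 and 25.2 CPM in adipocyte libraries and 37.4, 31.2 and 33.0 CPM in preadipocyte libraries, which overlap. Hsf2 was not called at 0.29. With the replicate block Hsf1 was called lower, at -0.29 (edgeR, adjusted p = 0.00118), and Hsf2 higher, at 0.29 (edgeR, adjusted p = 0.0145). Without the first adipocyte library Hsf1 was likewise called lower at -0.40 and Hsf2 higher at 0.46, while Hsf2 stood at -0.03 with total counts and -0.19 with limma on TPM, not called in either. Hsf1 was also called lower with upper-quartile factors (-0.42), total counts (-0.61), limma on TPM (-0.78) and without both libraries numbered 1 (-0.34).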
